A study of Mus musculus with 2 samples.

Results

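Sodium absorption in the distal gut was followed here through 9 genes, chosen by name as the aldosterone-regulated route and found by GENCODE symbol in the gene and transcript tables of both libraries. They are 9 of the 43346 Ensembl genes that the tables list. They encode the 3 subunits of the epithelial sodium channel (Scnn1a, Scnn1b and Scnn1g), the mineralocorticoid receptor (Nr3c2), the enzyme that guards it (Hsd11b2), a kinase and a ubiquitin ligase that act on the channel (Sgk1 and Nedd4l), and subunits of 2 ion pumps (Atp1b1 and Atp12a). The samples were whole colon of adult C57BL/6J mice aged 8 weeks, untreated as far as the labels say, with 2 libraries of polyadenylated RNA in 1 group. The labels name littermates of mixed sex and 1 donor record for both libraries, so there is no comparison between conditions, and the spread between the libraries may be partly technical.

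Aldosterone, a steroid of the adrenal cortex, enters epithelial cells and binds the mineralocorticoid receptor, which then acts on gene transcription. Cortisol-type hormones bind the same receptor, and 11-beta-hydroxysteroid dehydrogenase type 2 (Hsd11b2) inactivates them in cells that answer to aldosterone. One induced gene is Sgk1, a kinase that phosphorylates Nedd4l and so limits the removal of the sodium channel from the apical membrane. Sodium that enters through the channel leaves across the basolateral side through the Na,K-ATPase. In the colon this route recovers sodium from the faecal stream, and the non-gastric proton-potassium pump Atp12a recovers potassium.

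Nedd4l binds the channel through a proline-proline-any-tyrosine motif near the end of each subunit. The coding sequence of each subunit was searched in frame for the codons of that motif in the GENCODE M21 transcripts (mm10, GRCm38). Each subunit held it 1 time, with 26 codons after it in Scnn1a, 20 in Scnn1b and 22 in Scnn1g. The 30 bases around it are shown because they are the part of the channel that Nedd4l acts on, with the 4 motif codons in capitals. They lie on the plus strand at chr6:125343987-125344016 for Scnn1a, chr7:121917976-121918005 for Scnn1b and chr7:121767460-121767489 for Scnn1g.
Scnn1a: acagcccctCCACCTGCCTATgctacccta
Scnn1b: gggactccaCCCCCCAACTATgactccctg
Scnn1g: ggcacaccaCCCCCCAGATACaataccttg

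The libraries held 46689262 expected counts (replicate 1) and 45966841 (replicate 2), where an expected count is the authors' estimate of the reads from a gene. They stood apart in ways the labels do not give. Xist had 8721 counts in replicate 1 and 12 in replicate 2, while 4 Y-linked genes had 0 and 1382, which goes against a label of pooled sexes for each library. The 7 pancreatic acinar markers summed to 29.3 TPM (a level per transcript length, scaled to the same total in each library) in replicate 1 and 32028 in replicate 2, and the 5 erythroid markers to 525 and 2998. All 12 of these markers were called higher in replicate 2 by the test given further on. The 5 adipocyte markers summed to 216 and 469 TPM, with 2 of 5 called higher in replicate 2. Markers of the colon itself were present in both libraries, none was called, and their log2 ratios lay between -0.69 and 0.57: 7 absorptive colonocyte markers summed to 19511 and 21104 TPM, 5 goblet cell markers to 21858 and 24847, 5 smooth muscle markers to 5214 and 5150, and 5 enteric neuron markers to 70.9 and 63.0. Kidney tubule, the other main site of this pathway, was near 0 (5 markers summed to 0.74 and 1.15 TPM, with Slc12a1 at 0 in both).

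All 9 genes were at 1 TPM or more in both libraries, and they covered a wide range. Hsd11b2 and Atp1b1 were the most abundant, and the channel subunit Scnn1g was the least, at under 3 TPM. The order of the 9 was the same in both libraries, and no gene's range over the 2 libraries overlapped that of its neighbour in the order. With only 2 libraries the spread of each level is poorly known, so neighbours close in level, such as Sgk1 and Atp12a, cannot be placed firmly.

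**Figure D1:**
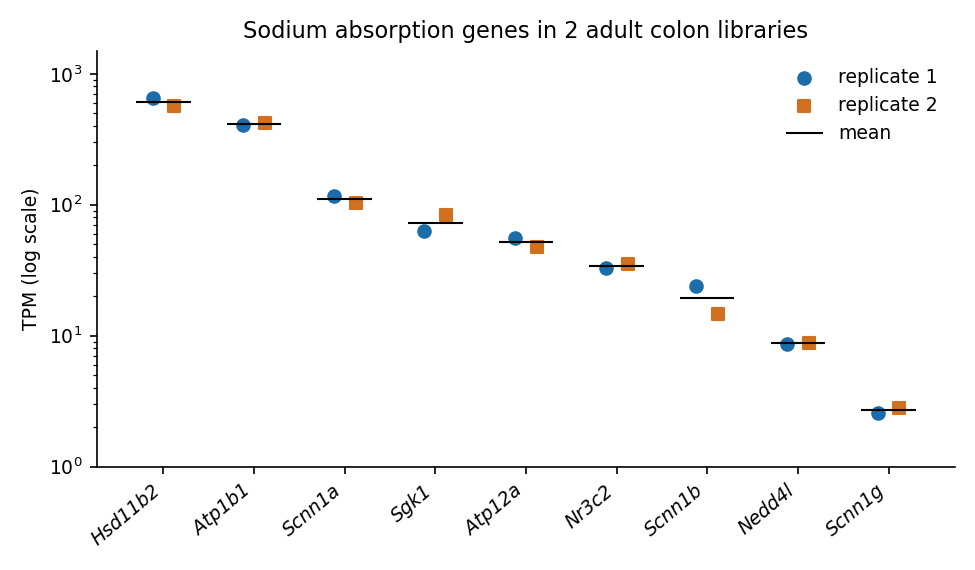
Levels of the 9 sodium absorption genes in TPM on a log axis, with circles for replicate 1, squares for replicate 2 and a line at their mean. The genes run from Hsd11b2 at 656 and 564 TPM to Scnn1g at 2.57 and 2.81, in the same order in both libraries.

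Scnn1a, the channel's alpha subunit (ENSMUSG00000030340.12, chromosome 6, 125320659 to 125344943, plus strand), was at 118 TPM in replicate 1 and 102 in replicate 2, or 110 ± 10.8 TPM (SD, n = 2). Scnn1b, the beta subunit (ENSMUSG00000030873.8, chromosome 7, 121865038 to 121918514, plus strand), was at 23.9 and 14.8 TPM, or 19.3 ± 6.46 (SD, n = 2). Scnn1g, the gamma subunit (ENSMUSG00000000216.8, chromosome 7, 121734479 to 121768475, plus strand), was at 2.57 and 2.81 TPM, or 2.69 ± 0.170 (SD, n = 2). The alpha subunit was thus well above the other two in both libraries, although the 3 proteins assemble into 1 channel. It held 81.6% of the summed TPM of the 3 subunits in replicate 1 and 85.3% in replicate 2, against 16.6% and 12.3% for Scnn1b and 1.78% and 2.34% for Scnn1g.

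Within each library, Scnn1a exceeded Scnn1b 4.92-fold and 6.93-fold in TPM (5.93 ± 1.42, SD, n = 2). Scnn1a exceeded Scnn1g 45.8-fold and 36.4-fold (41.1 ± 6.61, SD, n = 2). These ratios and the shares above use the TPM of the whole gene. Of it, Scnn1a-201, which encodes the full subunit, held 72.0 and 62.6 TPM. Scnn1a-202, annotated as a target of nonsense-mediated decay, held 44.5 and 39.0 TPM. By this deposited division, ratios for Scnn1a-201 alone would be smaller. The junctions that only Scnn1a-202 needs were not listed (below), so how much smaller is uncertain. The ratio of Scnn1b to Scnn1g was 9.30 in replicate 1 and 5.25 in replicate 2 (7.28 ± 2.86, SD, n = 2). The depth behind these levels differed by subunit: 11955 and 10275 counts for Scnn1a, 1921 and 1175 for Scnn1b, and 261 and 283 for Scnn1g. Scnn1g and Scnn1b are neighbours on chromosome 7, 96.6 kb apart on the same strand. On the opposite strand, 39152 bases of Scnn1b's span are shared with Cog7 (23.95 and 23.1 TPM). These bases are of whole spans, introns included, and the overlap of exons was not tested. The expected counts of Scnn1b were whole numbers in both libraries (1921 and 1175). The labels call the libraries stranded, but whether the counting used strand is not given in the sources used here. Reads of Scnn1b and Cog7 could thus be assigned wrongly. The same limit touches the ends of Atp1b1 (617 bases shared with Nme7, at 4.25 and 4.10 TPM) and Nr3c2 (1180 bases shared with Gm10649, at 0.46 and 0.43 TPM), and antisense genes of M21 that the deposited tables do not list overlap Nedd4l and Atp12a.

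The receptor gene Nr3c2 (ENSMUSG00000031618.9, chromosome 8, 76899442 to 77245012, plus strand) was at 33.0 TPM in replicate 1 and 35.0 in replicate 2, or 34.0 ± 1.39 (SD, n = 2). Hsd11b2 (ENSMUSG00000031891.5, chromosome 8, 105518755 to 105523988, plus strand) was at 656 and 564 TPM, or 610 ± 65.2 (SD, n = 2). Among 21474 protein-coding genes Hsd11b2 ranked 180 and 218 by TPM, and Nr3c2 ranked 3873 and 3603. The enzyme thus had 19.9 and 16.1 times the TPM of the receptor it guards. The receptor's TPM here includes 6.19 and 7.49 TPM of Nr3c2-206, a short transcript annotated with 385 coding bases against 2940 in Nr3c2-203. The glucocorticoid receptor Nr3c1 was at 12.2 and 10.3 TPM, which put Nr3c2 above it 2.71-fold and 3.41-fold. Hsd11b1, the enzyme that runs the opposite reaction and regenerates active glucocorticoid, was at 4.46 and 7.48 TPM, so that Hsd11b2 exceeded it 147-fold and 75.4-fold.

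Sgk1 (ENSMUSG00000019970.11, chromosome 10, 21882184 to 21999903, plus strand) was at 62.8 TPM in replicate 1 and 83.3 in replicate 2, or 73.0 ± 14.4 (SD, n = 2). Of this, Sgk1-208, a short transcript annotated as a retained intron, held 11.5 and 24.4 TPM, and the coding Sgk1-201 held 48.4 and 55.1. In replicate 1 Sgk1-201 alone was below Atp12a (56.1 TPM). Sgk1 was 1 of 5 genes that were higher in replicate 2, with Atp1b1, Nr3c2, Nedd4l and Scnn1g, and its gap was the widest of these. Its relatives were lower, with Sgk2 at 25.1 and 14.7 TPM and Sgk3 at 0.32 and 0.50. Nedd4l (ENSMUSG00000024589.11, chromosome 18, 64887705 to 65217828, plus strand) was at 8.69 and 8.82 TPM, or 8.76 ± 0.0919 (SD, n = 2) and had the smallest log2 ratio between the libraries of the 9. The related ligase Nedd4 had 6.06 and 6.69 times the TPM of Nedd4l.

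Atp1b1, the beta-1 subunit of the Na,K-ATPase (ENSMUSG00000026576.8, chromosome 1, 164437109 to 164458355, minus strand), was at 403 TPM in replicate 1 and 419 in replicate 2, or 411 ± 10.9 (SD, n = 2). It was the leading beta subunit, at 11.7 and 13.9 times the TPM of Atp1b3 and 70.6 and 74.6 times that of Atp1b2. Atp12a, the catalytic subunit of the non-gastric proton-potassium pump (ENSMUSG00000022229.2, chromosome 14, 56365068 to 56388550, plus strand), was at 56.1 and 47.2 TPM, or 51.7 ± 6.30 (SD, n = 2). The gastric form Atp4a was at 0.47 and 0.82 TPM and its beta subunit Atp4b had 0 counts in both libraries (a count of 0 allows for up to 3).

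The libraries were then set against each other gene by gene. Each gene's counts, scaled by library size, were compared by a two-sided exact binomial test, which allows for counting error alone and speaks of these libraries rather than of conditions. A gene was called at a Benjamini-Hochberg adjusted p of at most 0.05 over all 17713 genes tested with a log2 ratio of 1 or more in either direction. Of all genes tested 6.11% were called, 2.48% as higher in replicate 1 and 3.63% as higher in replicate 2. Of the 8914 genes whose counts summed to 1000 or more, 47 were called higher in replicate 1 and 66 in replicate 2. That class holds all of the 9 genes but Scnn1g. Of the 9 sodium absorption genes 0 were called by this exact test. An unadjusted p under 0.05 was found for 6 of them, for 53.6% of all genes tested and for 6277 of the 8914 high-count genes. By edgeR's exact test at the dispersion estimated from both libraries 0 of 9 were called and 0 had an unadjusted p under 0.05, where 1.35% of all genes were called and 4.24% had such a p. That dispersion takes in the difference between the same 2 libraries, so a gene not called there is not thereby shown to be steady. At any fold size 6 of 9 passed the adjusted threshold of the binomial test. So did 48.8% of all genes tested and 5903 of the 8914 high-count genes. The median absolute log2 ratio was 0.19 for the 9 genes, 0.23 for all genes tested and 0.16 for the 8914 genes whose counts summed to 1000 or more.

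**Figure D2:**
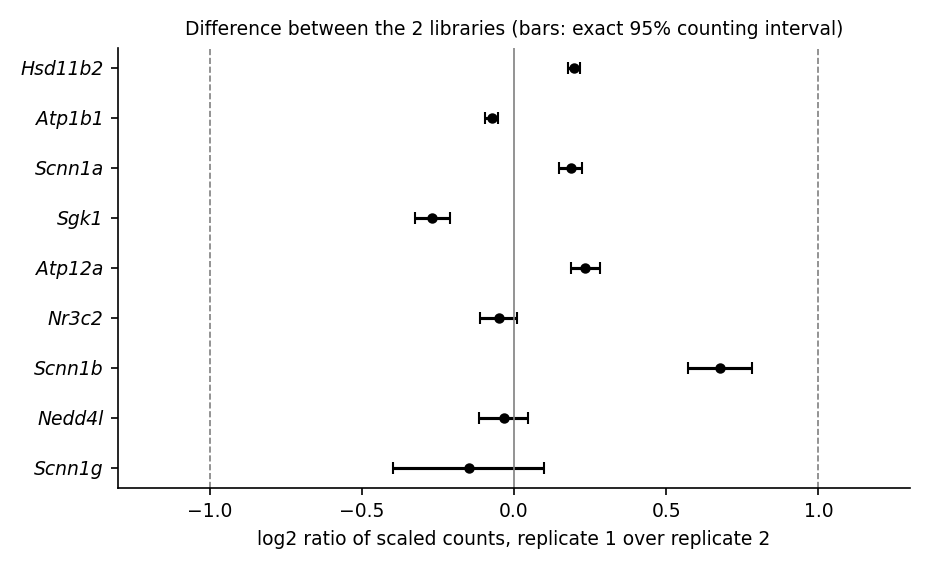
The log2 ratio of scaled counts, replicate 1 over replicate 2, for each of the 9 genes, with bars for the exact 95% counting interval and dashed lines at the ratio used for a call. Scnn1b, at 0.68, lies farthest from 0, and no gene reaches a dashed line.

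Scnn1b differed most, with a log2 ratio of 0.68 (95% counting interval 0.57 to 0.78), or 1.60-fold higher counts in replicate 1 (adjusted p = 2.24e-36 by the exact binomial test). By edgeR's exact test its adjusted p was 1, at a dispersion that takes in the difference between these same libraries, so the test cannot decide. Among all genes tested 15.1% lay at least as far from 0, and among those whose counts summed to 1000 or more, 3.09% did. Its neighbour Scnn1g was at -0.15 (-0.40 to 0.10) and Scnn1a at 0.19 (0.15 to 0.22), and neither counting interval overlapped that of Scnn1b. In whole tissue, fewer cells of a type and less RNA per cell cannot be told apart, and the part that acinar, blood or fat RNA plays in these ratios was not tested. The Xist and Y-linked counts also differed between the libraries, so these ratios cannot be told apart from a difference of sex. With the acinar markers, mitochondrially encoded genes and spike-ins left out of the TPM total, the factor applied to every level was 1.04 in replicate 1 and 1.07 in replicate 2.

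The other genes lay within 0.3 log2 units of 0. Sgk1 was at -0.27 (95% counting interval -0.33 to -0.21), Atp12a at 0.23 (0.19 to 0.28), Hsd11b2 at 0.20 (0.18 to 0.22) and Atp1b1 at -0.07 (-0.09 to -0.05). These 4 intervals leave out 0, so the gaps were larger than counting error alone. Nr3c2 at -0.05 (-0.11 to 0.01) and Nedd4l at -0.03 (-0.11 to 0.05) had intervals that held 0, as Scnn1g did, and the adjusted p of these 3 ran from 0.179 to 0.534 by the binomial test.

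The transcript tables give, for each annotated transcript, the percent of the gene's abundance that the authors' estimate assigns to it. Scnn1b, Scnn1g, Hsd11b2 and Atp12a have 1 transcript each in the tables. For Atp1b1 the transcript Atp1b1-201 took 97.2% in both libraries. The remaining 4 genes had several transcripts or readings that differed, and for them the deposited file of splice junction reads gave a second view of which transcripts were made. That file sums both libraries, is on the mm9 assembly, and does not tie its per-library counts to a replicate number. Junctions were therefore recognised by the lengths and spacing of the annotated introns alone, and this comparison was chosen after the data were seen. The introns of the leading transcript were all listed for Hsd11b2 (4 introns, 3344 to 5154 reads), Atp1b1 (5 introns, 1009 to 4654 reads), Atp12a (22 introns, 53 to 1033 reads), Scnn1b (12 introns, 33 to 198 reads), Scnn1g (12 introns, 3 to 38 reads) and Sgk1 (11 introns, 89 to 1226 reads).

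Scnn1a was divided between Scnn1a-201, which encodes the full subunit (61.2% in both libraries), and Scnn1a-202, annotated as a target of nonsense-mediated decay (37.8% and 38.2%). Scnn1a-202 leaves out exon 3 of Scnn1a-201, a stretch of 191 bases at chromosome 6, 125332093 to 125332283, and begins at another first exon. The junction of exon 2 with exon 3 had 951 reads and that of exon 3 with exon 4 had 626, while the junction of exon 2 with exon 4, which Scnn1a-202 needs, was not listed. The intron after the first exon of Scnn1a-202, 661 bases long, was not listed either. A listing could miss a junction that was aligned a few bases off. That happened for a 437-base intron common to both transcripts, listed with 323 reads at 2 bases from its annotated place. No junction of the same length was listed within 10 bases of the skipping junction. The exon joins are shown because they separate the transcripts, 15 bases from each side on the plus strand, with the exon 3 side in capitals. The last line is the join that no listed junction carried.
Exon 2 to exon 3: atcggcttccaactgTGCAACCAGAACAAA
Exon 3 to exon 4: CCCCTGCAATCAGGCgaattattctcagtt
Exon 2 to exon 4: atcggcttccaactggaattattctcagtt

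Nr3c2 was divided among 3 transcripts at 10% or more. Nr3c2-201 took 38.0% and 37.1%, Nr3c2-203 took 33.9% and 34.9%, and the short Nr3c2-206 of 612 bases took 18.8% and 21.4%. Nr3c2-201 is annotated almost wholly as coding sequence and holds 12 bases that Nr3c2-203 lacks, at chromosome 8, 77085667 to 77085678. The junction that leaves these bases out had 18 reads, and the junction that keeps them was not listed. With so few reads at this place, a minor share of the longer form would not have been detectable. The deposited share of Nr3c2-201 is not minor. It stands at 38.0% and 37.1%, against 43.3% and 41.5% for Nr3c2-203 and Nr3c2-204 together, which lack the 12 bases. The cause of this difference from the junction reads was not tested. The join is shown with the 12 bases in capitals, and then without them.
Nr3c2-201: ccgtggaagGTAAATGTTCACgacaacaca
Nr3c2-203: ccgtggaaggacaacaca

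Nr3c2 also has alternative first exons. The junction from the first exon of Nr3c2-203 had 422 reads and that of Nr3c2-204 had 19, so Nr3c2-203 took 95.7% of the reads of the 2 (exact 95% interval 93.4% to 97.4%). The deposited shares of these transcripts, set against each other alone, gave Nr3c2-203 78.2% in replicate 1 and 84.2% in replicate 2. The 2 introns of Nr3c2-206 had 119 and 84 reads. Its first exon joins a small exon there before the main coding exon.

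Nedd4l was assigned almost wholly to Nedd4l-202, at 92.8% and 97.0%, with the rest in Nedd4l-201. In GENCODE M21 the transcripts differ in their first exons and by an internal exon of 60 bases, present in Nedd4l-201 and absent from Nedd4l-202. At the first exons reads were few. The first intron of Nedd4l-202 was not listed, its second, also absent from Nedd4l-201, had 12 reads, and the first intron of Nedd4l-201 had 1. The next introns, shared by both transcripts, had 1, 2 and 5 reads, while the one after these had 75 and a later one 462. The first-exon reads therefore do not show which start the later reads come from. The junctions into and out of the 60-base exon had 170 and 226 reads, against 64 for the junction that skips it. At this exon the skipped form thus made up 24.4% of the junction reads, with the mean of both inclusion junctions as the other part, and the included form 75.6%. The reads at the 60-base exon thus leaned to the form that Nedd4l-201 carries, while the deposited shares lean to Nedd4l-202. The few reads at the starts cannot decide between them. They were of the second intron of Nedd4l-202 (12 reads) and the first of Nedd4l-201 (1 read), which are not like places. The transcript lengths of the deposited tables (8163 and 8212 bases) are not those of M21 (7787 and 3671), so whether the older models differ by the same exon is unknown here.

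**Figure D3:**
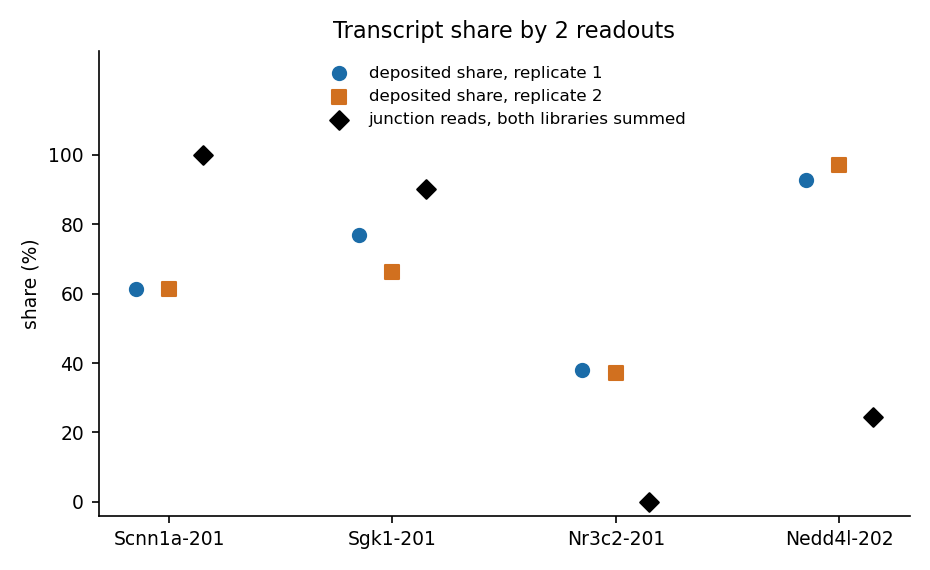
Share in percent of 4 transcripts by 2 readouts, with circles and squares for the deposited shares of replicates 1 and 2 and diamonds for reads at separating junctions, both libraries summed. For Nedd4l-202 the deposited shares are 92.8% and 97.0% and the junction share, at its 60-base exon alone, 24.4%, and for Nr3c2-201 they are 38.0% and 37.1% against no listed junction.

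Sgk1 showed the widest gap in transcript shares between the libraries. The coding Sgk1-201 took 77.0% in replicate 1 and 66.2% in replicate 2, and Sgk1-208, a 644-base transcript annotated as a retained intron, took 18.3% and 29.3%. The share of its 3 retained-intron transcripts was 20.1% and 30.7% in sum. Counted in reads instead of per length, Sgk1-208 was small, with 182 and 390 expected counts against 3974 and 4482 for Sgk1-201. The junctions of Sgk1-208 are all shared with Sgk1-201, so junction reads could not separate them.

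The start of Sgk1 could be read from its first exons. The junction from the first exon of Sgk1-201 had 295 reads, that of Sgk1-202 had 27 and that of Sgk1-203 had 5. Sgk1-201 thus took 90.2% of the reads of these 3 (exact 95% interval 86.5% to 93.2%), and 96.3% and 95.9% of their deposited shares. The 250 bases before this start are shown because most reads came from it (RefSeq promoter table, GRCm38.p6, chr10:21994416-21994665, plus strand), with the letters TATAAA in capitals.
Sgk1 promoter: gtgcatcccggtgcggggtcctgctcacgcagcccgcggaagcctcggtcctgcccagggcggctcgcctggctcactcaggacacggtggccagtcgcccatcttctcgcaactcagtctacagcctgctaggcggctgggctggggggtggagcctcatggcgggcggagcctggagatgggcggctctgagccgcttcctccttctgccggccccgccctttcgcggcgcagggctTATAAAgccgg
TATAAA, searched on both strands, stands 11 bases before the first base of Sgk1-201 and was found in 12.4% of the 32851 promoter windows of this length. AGAACA, the core of a steroid response element, searched likewise, was not in these letters and was in 16.1% of windows. The window held 22 CG pairs, a count that 14.8% of windows reached, against a median of 6. Of the 9 genes 5 had a promoter in that table.

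Partners of the 9 genes were described from 10 lists with 82 genes in all, and 64 of them were at 1 TPM or more in both libraries. By the exact binomial test 1 of the 72 tested was called, against 6.11% of all genes and a smaller share of high-count genes (above). That gene was Fxyd2, a small regulatory subunit of the Na,K-ATPase, with 85 counts in replicate 1 and 178 in replicate 2 (5.51 and 11.4 TPM). Its log2 ratio was -1.09 (95% counting interval -1.49 to -0.72, adjusted p = 1.93e-08 by the exact binomial test). It was not called by edgeR's exact test (adjusted p = 1), which has the limit given above. At an unadjusted p under 0.05 the binomial test held 48 of the 72, against 53.6% of all genes tested and 6277 of the 8914 high-count genes. At the same level edgeR's exact test held 0 of the 72, against 4.24% of all genes tested. edgeR called 0. The median log2 ratio of the 72 was -0.02, against -0.01 for all genes tested.

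**Figure D4:**
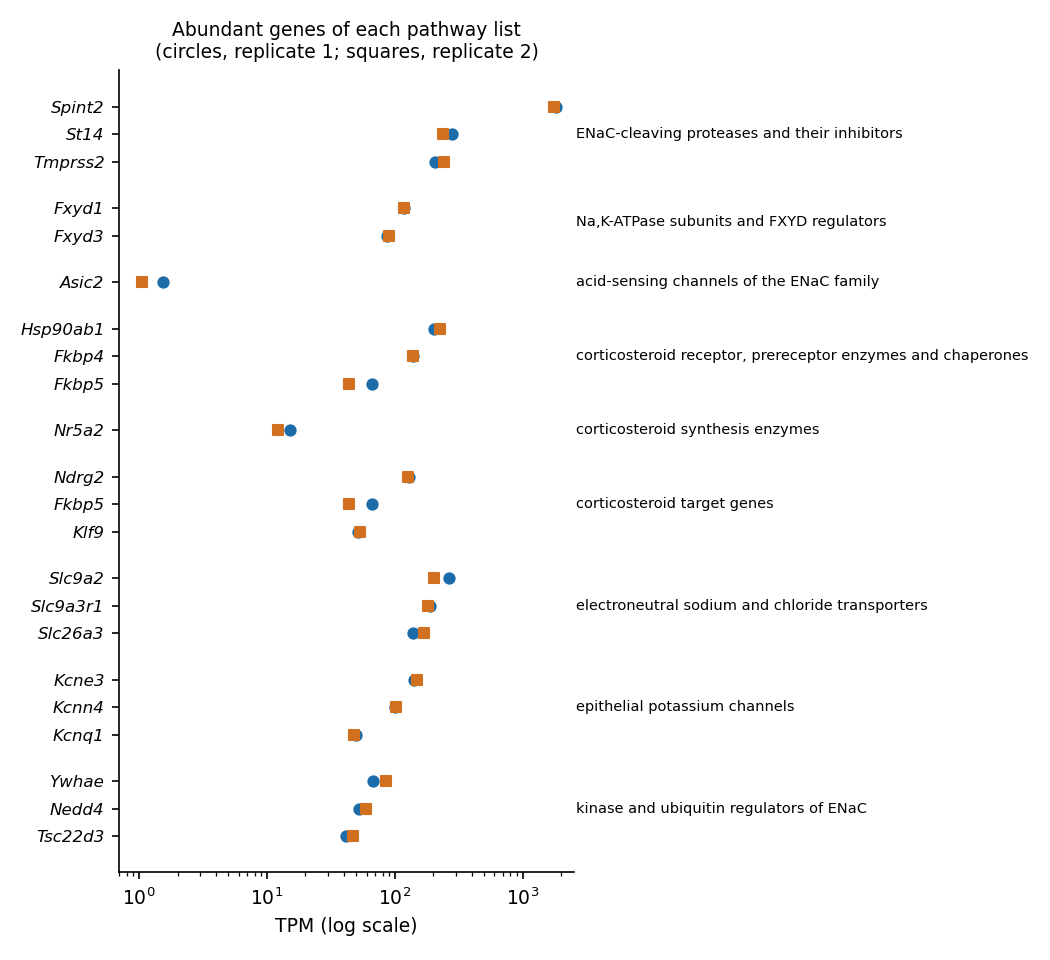
Levels in TPM on a log axis of up to 3 abundant genes of each partner list that were at 1 TPM or more in both libraries, with circles for replicate 1 and squares for replicate 2. Spint2, at 1829 and 1739 TPM, was the highest gene plotted, and Asic2, at 1.55 and 1.06, the lowest.

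The channel is activated by proteases that clip its subunits outside the cell, and all 9 genes of the protease and inhibitor list were at 1 TPM or more. The inhibitor Spint2 stood at 1829 and 1739 TPM, or 16.4 ± 0.817 times (SD, n = 2) the level of its target protease Prss8 (116 and 102 TPM). The membrane proteases St14 (277 and 239 TPM) and Tmprss2 (207 and 244 TPM) were above Prss8. None of the 9 was called. At any fold size 8 passed the adjusted threshold, against 48.8% of all genes tested and 5903 of the 8914 genes whose counts summed to 1000 or more. The related acid-sensing channels were low: Asic2 alone of 5 was at 1 TPM or more in both libraries (1.55 and 1.06 TPM).

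Among the 13 other Na,K-ATPase genes 12 were at 1 TPM or more and 1, Fxyd2, was called. The regulators Fxyd1 (119 and 117 TPM) and Fxyd3 (86.2 and 89.3 TPM) were among the more abundant. Fxyd4, a regulator known to be induced by corticosteroids in the colon, was low at 6.47 and 4.33 TPM. Its log2 ratio of 0.55 (95% counting interval 0.25 to 0.85) had the same direction as that of Scnn1b and did not reach a call.

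Among 18 kinase and ubiquitin regulators 16 were at 1 TPM or more and 0 were called by the exact binomial test. The 14-3-3 protein Ywhae (67.2 and 85.7 TPM), the ligase Nedd4 (52.7 and 59.0 TPM) and Tsc22d3 (41.7 and 47.4 TPM), known as a regulator of the channel and a glucocorticoid target, were the most abundant. Sgk2 showed the widest ratio of the list, at 0.76 (95% counting interval 0.66 to 0.86) and higher in replicate 1, where Sgk1 was lower.

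All 9 genes of the receptor, prereceptor enzyme and chaperone list were at 1 TPM or more. The heat shock protein Hsp90ab1 (201 and 227 TPM) and the immunophilins Fkbp4 (139 and 138 TPM) and Fkbp5 (65.8 and 43.9 TPM), cochaperones of steroid receptors, led it. Hsd11b1 was the widest of this list at -0.78 (95% counting interval -1.09 to -0.49), higher in replicate 2, and none was called. Of the 9 corticosteroid target genes all were at 1 TPM or more and none was called. Ndrg2 (130 and 127 TPM) and Klf9 (51.8 and 53.7 TPM) were even between the libraries. Fkbp5 was higher in replicate 1 (log2 ratio 0.57) and Zbtb16 and Per1 were higher in replicate 2 (-0.82 and -0.39), so the targets did not share a direction.

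Enzymes that make corticosteroids were almost absent. Cyp11b1, Cyp11b2, Cyp21a1 and Hsd3b1 had 0 counts in both libraries, and of 8 genes listed only the regulator Nr5a2, which the gut epithelium also uses, was at 1 TPM or more (15.2 and 12.3 TPM). Sodium also enters colonocytes without charge, by exchange for protons. The exchangers Slc9a2 (263 and 203 TPM) and Slc9a3 (114 and 77.0 TPM), the scaffold Slc9a3r1 (188 and 180 TPM) and the chloride exchanger Slc26a3 (139 and 168 TPM) were all abundant. Slc9a3 stood at 0.972 and 0.753 times the TPM of Scnn1a and at 4.78 and 5.22 times that of Scnn1b. By the deposited division of Scnn1a, the transcript Scnn1a-201 alone, at 72.0 and 62.6 TPM, was below Slc9a3 in both libraries. The junctions that only Scnn1a-202 needs were not listed, so this order depends on that division. With the TPM of the whole gene, 118 and 102, Scnn1a was above Slc9a3 in both. The kidney's thiazide-sensitive transporter Slc12a3 had 3 and 9 counts. Of 6 epithelial potassium channel genes 5 were at 1 TPM or more. They were led by the accessory subunit Kcne3 (140 and 149 TPM), Kcnn4 (99.4 and 103 TPM) and Kcnq1 (49.6 and 48.2 TPM), while the kidney channel Kcnj1 had 0 counts in both.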

How the data were processed

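Polyadenylated RNA longer than 200 nt, read at 76 nt, was measured in 2 colon libraries, per the labels. The deposited gene and transcript tables hold expected counts (estimated by the authors, not normalized), TPM, posterior mean TPM, FPKM and, for transcripts, the percent of the gene's abundance. Per the deposited file notes they rest on mm10 and GENCODE M4. The deposited junction file holds a read count per junction on mm9. As to aligner, quantifier version and strand setting, these were not given in the sources used here.

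Symbols and mm10 positions came from GENCODE M21 by identifier without version (42462 of 43346 matched). The rest took 0.0973% and 0.0907% of Ensembl counts. Expected counts were rounded. Library sizes were scaled by TMM (edgeR 4.0.16, R 4.3.3). The binomial p was the doubled exact smaller tail (scipy), for genes whose counts summed to 10 or more, and log2 ratios added 0.5 to each count. edgeR's quasi-likelihood test needs residual degrees of freedom, which 1 group of 2 libraries lacks for this contrast. The edgeR exact test used the common dispersion fitted with an intercept alone (coefficient of variation 0.271). Intervals are exact 95% binomial intervals and, like a count of 0 with its limit of 3 counts, cover counting error only. On simulated counts for replicate 1 against replicate 2, the binomial test recovered 200 of 200 genes changed 3-fold and called 0 unchanged genes of 17747 tested. Its libraries varied by counting error alone, which real libraries exceed. The transcript named in each gene is any at 10% or more in either library. Partner lists name the 3 highest genes at 1 TPM or more and others needed to describe a count; 1 gene is not reported here. The members and lists were chosen with earlier results of these data known. Alternatives were DESeq2 1.42.0 size factors, total counts, other count minimums, other added counts, posterior mean TPM, FPKM and rescaled TPM.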

Additional observations from a re-analysis of the deposited data

How the results depend on the processing

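No paired analysis was possible because the libraries form 1 group. The count of sodium absorption genes called stayed at 0 under each of the 5 alternatives run, and each gene's log2 ratio kept its direction. The 1 partner gene called became 0 in edgeR's exact test, whose dispersion takes in the difference between these libraries. The 1083 genes called over all genes became 414 at a minimum summed count of 100 and 239 in edgeR's exact test. Rescaled TPM, with acinar, mitochondrial and spike-in features left out, moved Nr3c2 to 35.8, Nedd4l to 9.21 and Atp1b1 to 432 TPM by construction. By transcript expected counts the shares became 72.5% (Scnn1a-201), 90.0% (Sgk1-201), 29.9% (Nr3c2-201) and 99.5% (Atp1b1-201), since reads are then not divided by length. By posterior mean TPM they became 60.8% (Scnn1a-201), 36.7% (Nr3c2-201) and 97.1% (Atp1b1-201). Junction reads were chosen after seeing the data. By them the shares became 100% (Scnn1a-201), 90.2% (Sgk1-201, among 3 starts only), 0% (Nr3c2-201) and 24.4% (Nedd4l-202, at its 60-base exon only). The cause was not tested. At the starts of Nedd4l, the first intron of Nedd4l-202 was not listed and its second had 12 reads. The first intron of Nedd4l-201 had 1. At a threshold of 5 TPM 8 of 9 genes passed. Low depth limits Scnn1g, with 261 and 283 counts, and the Nr3c2 junction of 18 reads. The first exons of Nedd4l had few reads although a later intron had 462, and the cause was not tested.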
